A study of Mus musculus with 9 samples.

Results

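Neutrophil granule and receptor genes were described in mouse lung after irradiation of the brain. The set comprised 10 genes, S100a8, S100a9, Retnlg, Csf3r, Il1r2, Lcn2, Ngp, Camp, Mpo and Elane, taken by symbol from the 22564 protein-coding genes of the expression table, and each had 1 row there. The 9 libraries were made from lungs of GFP-LC3 mice, a strain that carries a fluorescent reporter of autophagy, and this background was common to the controls and the treated groups. There were 3 libraries after sham irradiation, 3 after a single whole-brain X-ray exposure of 10 Gy at 2 Gy per min, and 3 after 3 exposures of that kind given once a week. The lung lay outside the intended field, and the series asks about effects on this unexposed organ. The labels give no age, sex or interval to tissue collection and do not say whether each library is a separate animal, so the p-values measure the spread between these libraries, which may be technical.

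Neutrophils are short-lived phagocytes that are made in the bone marrow, circulate in blood and linger in the capillaries of the lung. Their granule proteins are transcribed in sequence during maturation in the marrow: the azurophil granule enzymes myeloperoxidase and neutrophil elastase at the promyelocyte stage, then the secondary granule proteins, and last the receptors and cytosolic proteins of the mature cell. Transcripts of granule proteins are therefore known to be scarce in mature blood neutrophils, whereas transcripts of S100a8, S100a9, Csf3r and Il1r2 are abundant in them. Lcn2 is known to be made by airway and alveolar epithelium as well as by neutrophil precursors.

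The promoters of 4 genes are shown because their transcripts behaved differently across the libraries: Ngp and Camp were low together in the irradiated groups, S100a9 stood for the genes of the mature cell, and Lcn2 went its own way. Each is the RefSeq window of 300 bases on GRCm38.p6, from 250 before to 50 after the transcript start, in the sense of the gene. Capitals mark matches, on either strand, to TTNNGCAA (C/EBP factors, which drive granulocyte genes) or to GGAAGT (PU.1 and other ETS factors).
Ngp, chr9:110419558-110419857, plus strand: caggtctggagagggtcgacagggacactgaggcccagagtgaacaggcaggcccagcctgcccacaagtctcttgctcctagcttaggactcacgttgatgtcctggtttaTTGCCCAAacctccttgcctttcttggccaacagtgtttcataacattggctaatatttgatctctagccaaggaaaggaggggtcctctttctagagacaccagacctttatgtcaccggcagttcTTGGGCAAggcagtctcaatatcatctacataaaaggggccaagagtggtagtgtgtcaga
Camp, chr9:109849407-109849706, minus strand: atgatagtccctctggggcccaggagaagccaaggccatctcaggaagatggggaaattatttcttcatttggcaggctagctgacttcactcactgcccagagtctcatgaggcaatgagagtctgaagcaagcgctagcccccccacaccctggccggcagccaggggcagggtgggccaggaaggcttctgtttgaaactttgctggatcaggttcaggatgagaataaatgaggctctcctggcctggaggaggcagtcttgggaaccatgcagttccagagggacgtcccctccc
S100a9, chr3:90695672-90695971, minus strand: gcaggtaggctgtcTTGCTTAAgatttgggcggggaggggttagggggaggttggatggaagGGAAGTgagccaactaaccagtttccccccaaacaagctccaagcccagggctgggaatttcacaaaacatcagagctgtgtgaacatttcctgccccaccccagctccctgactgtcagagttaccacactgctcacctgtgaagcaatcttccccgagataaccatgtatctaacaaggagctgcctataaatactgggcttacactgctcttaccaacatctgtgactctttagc
Lcn2, chr2:32387690-32387989, minus strand: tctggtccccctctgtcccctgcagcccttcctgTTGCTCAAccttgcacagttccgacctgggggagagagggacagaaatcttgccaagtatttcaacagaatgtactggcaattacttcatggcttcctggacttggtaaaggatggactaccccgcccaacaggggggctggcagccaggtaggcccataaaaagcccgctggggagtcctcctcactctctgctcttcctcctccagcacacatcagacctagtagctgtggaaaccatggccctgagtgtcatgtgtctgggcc

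All 10 genes had a RefSeq promoter. TTNNGCAA matched in 4 of the 10, S100a9, Retnlg, Lcn2 and Ngp, and in 10.8% of 32851 windows of this length. The Ngp window held 2 matches, which began 138 and 11 bases before the start, and the Camp window held none, although Ngp and Camp were low in the same groups. GGAAGT matched in S100a8, S100a9, Il1r2, Mpo and Elane, 5 of 10, against 23.8% of all windows, and TGTGGT, a RUNX motif that overlaps neither, matched in S100a9 alone, against 16.8%. A match is a description of letters, not of binding.

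Libraries held 4987828 to 7381008 fragments, and the 10 genes together took 0.00789 to 0.0777% of them. The lung markers Sftpc, Scgb1a1 and Ager were present in every library. Library 1 of the single exposure stood apart, with a summed level of 12374 CPM (normalized counts scaled to library depth) over 11 cardiac muscle markers against 451 to 717 CPM in sham, and with 98.6 CPM of Ager, an alveolar type 1 cell gene, against 855 to 888 CPM in sham. Library 1 of the sham group lay between its group mates in 71.2% of 14591 genes, against 12.7 to 43.2% for the other libraries within their groups, and it did so for all 10 neutrophil genes. It also stood apart from them in 10 skeletal muscle markers, with a summed level of 2697 CPM against 13.4 and 2.56 CPM in the other sham libraries and at most 116 CPM in the irradiated ones; Myh4, a fast skeletal myosin gene, was at 800 CPM there and at 0 in every other library. Whether sham library 1 is independent of its mates was not tested, nor was the part of muscle tissue in the neutrophil values, and results were also computed without it.

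In FPKM, a unit scaled by transcript length and library depth, the order of the levels in sham was S100a8 (328 ± 154, SD, n = 3), Lcn2 (243 ± 89.6), S100a9 (190 ± 94.7), Retnlg (41.8 ± 20.8), Csf3r (23.5 ± 4.39), Ngp (13.8 ± 8.32), Il1r2 (5.29 ± 3.99), Camp (4.28 ± 2.54), Mpo (0.398 ± 0.313) and Elane (0.12 ± 0.105). The ranges of neighbours in this order overlapped except between S100a9 and Retnlg and between Camp and Mpo. After irradiation Lcn2 headed the order in both groups, at 210 ± 138 FPKM after a single exposure and 235 ± 147 FPKM after 3 exposures. S100a8 followed at 175 ± 262 and 58.4 ± 45.8 FPKM, with ranges that overlapped those of Lcn2.

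The genes of azurophil granules, Mpo and Elane, were the scarcest of the set. Mpo, which encodes the myeloperoxidase of azurophil granules (chromosome 11, 87793581 to 87804413), had 8, 1 and 10 fragments in the sham libraries and 0 in each of the 6 irradiated libraries. Adjusted for depth, a floor of 3 fragments over a group lay 7.36-fold below the pooled sham count for the single exposure and 7.4-fold for 3 exposures. The floor allows for counting error in the irradiated libraries only. These ratios take the 19 sham fragments as exact and leave out the spread between libraries, so they are not lower bounds. Sham libraries 1 and 3 held 18 of the 19 sham fragments, and sham library 2, with 1, was within the limit that a count of 0 allows in a library. Elane, the neutrophil elastase gene (chromosome 10, 79886247 to 79888215), had 1, 1 and 0 fragments in sham, none in the single-exposure libraries and 0, 4 and 0 after 3 exposures, so that no difference was detectable at this depth. Its deposited locus of 672333 bases also spans 45 other protein-coding genes, and its value is uncertain for that reason too.

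Ngp, which encodes neutrophilic granule protein, a cathelicidin-related protein of secondary granules (chromosome 9, 110419747 to 110423012), had the lowest fitted changes of the 7 genes that passed the filter on low counts. It stood at 18.9, 7.35 and 29.5 CPM in sham, from 118, 39 and 150 fragments. After a single exposure it stood at 0, 0.344 and 2.07 CPM, from 0, 2 and 13 fragments, and after 3 exposures at 0.175, 2.59 and 1.31 CPM, from 1, 19 and 8 fragments. Each of the 6 irradiated libraries lay below each sham library. The log2 change was -4.49 ± 1.06 (SE, n = 3 against 3) after a single exposure, with an edgeR unadjusted p of 0.00196 and an adjusted p of 0.231. After 3 exposures the log2 change was -3.71 ± 0.99, with an edgeR unadjusted p of 0.00425 and an adjusted p of 0.409. Neither passed the adjusted threshold of 0.05 in edgeR, whereas DESeq2 gave an adjusted p of 0.00189 and 0.0261. Leaving out each library in turn, the edgeR unadjusted p stayed between 0.000802 and 0.00983 for the single exposure and between 0.000743 and 0.0213 for the 3 exposures. Ngp passed the filter through the sham group, with 3 sham and 2 irradiated libraries over 1.63 CPM, so that a gene admitted in this way had to be lower in the irradiated groups.

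Camp, which encodes the mouse cathelicidin antimicrobial peptide of secondary granules (chromosome 9, 109847379 to 109849617), followed Ngp at lower counts. In the sham libraries it had 15, 5 and 19 fragments, against 0, 1 and 0 in the single-exposure libraries and 1, 10 and 0 in those of the 3 exposures. The single-exposure libraries lay below all sham libraries, and library 2 of the 3 exposures lay above sham library 2 in CPM (1.36 against 0.942). Camp, Mpo and Elane were below the filter and were not tested in the fit. Without the filter, the edgeR adjusted p of Camp was 0.362 for the single exposure and 0.767 for the 3 exposures.

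**Figure D1:**
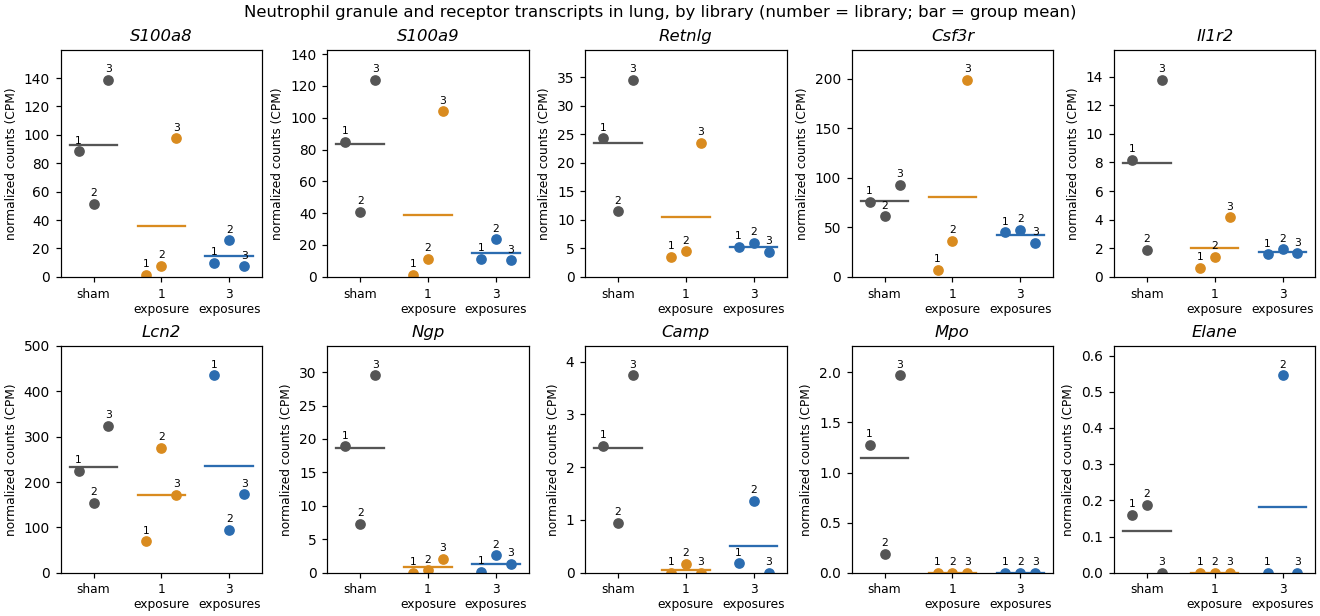
TMM-normalized counts (CPM, linear axis from 0) of the 10 genes in each of the 9 lung libraries; points are libraries with their number, bars are group means. Ngp lies at 7.35 CPM or more in sham and at 2.59 CPM or less in every irradiated library, whereas library 3 of the single exposure reaches the sham level for S100a8, S100a9 and Retnlg and exceeds it for Csf3r.

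S100a8 and S100a9, neighbouring genes on chromosome 3 (90668978 to 90670035 and 90692632 to 90695721), encode the 2 subunits of calprotectin, the main cytosolic protein of mature neutrophils. S100a8 stood at 88.4, 51.3 and 139 CPM in sham, at 1.37, 7.57 and 97.5 CPM after a single exposure and at 9.95, 25.8 and 7.37 CPM after 3 exposures. All libraries of the 3 exposures lay below all sham libraries, and those of the single exposure split, with library 3 inside the sham range. The log2 change after 3 exposures was -2.68 ± 1.18 (SE, n = 3 against 3, edgeR unadjusted p = 0.0475, adjusted p = 0.627), and with each library left out the edgeR unadjusted p lay between 0.00354 and 0.132. After a single exposure it was -1.39 ± 1.11 (edgeR adjusted p = 0.635), and without library 3 of that group it was -4.39 (unadjusted p = 0.000994). S100a9 stood at 84.7, 40.9 and 124 CPM in sham, at 1.37, 11.2 and 104 CPM after a single exposure and at 11.3, 23.6 and 10.3 CPM after 3 exposures. It showed the same order of libraries as S100a8 within each group, with 0.677 to 1.25 S100a8 fragments per S100a9 fragment in every library. The log2 change of S100a9 was -2.45 ± 1.12 after 3 exposures (edgeR unadjusted p = 0.0554, adjusted p = 0.649) and -1.09 ± 1.06 after a single exposure (adjusted p = 0.694). Without library 3 of the single exposure the latter was -3.73 (edgeR unadjusted p = 0.00253).

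Retnlg encodes a resistin-like secreted protein found in mouse neutrophils (chromosome 16, 48872621 to 48874496). It stood at 24.3, 11.5 and 34.6 CPM in sham, at 3.49, 4.48 and 23.5 CPM after a single exposure and at 5.24, 6 and 4.42 CPM after 3 exposures. The 3 exposures lay below sham without overlap, and library 3 of the single exposure again lay inside the sham range. Its log2 change after 3 exposures was -2.16 ± 0.70 (SE, n = 3 against 3, edgeR unadjusted p = 0.0128, adjusted p = 0.5), and the unadjusted p stayed between 0.000592 and 0.0481 when each library was left out. After a single exposure it was -1.16 ± 0.67 (edgeR adjusted p = 0.514), and -2.56 without library 3 of that group (unadjusted p = 0.000656).

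Csf3r is the receptor for granulocyte colony-stimulating factor, which governs neutrophil output (chromosome 4, 126024550 to 126044440). It stood at 75.9, 60.9 and 93.1 CPM in sham, at 6.98, 36.3 and 199 CPM after a single exposure and at 44.8, 47.3 and 34.6 CPM after 3 exposures. The single-exposure group thus held both the lowest and the highest of the 9 values, and the 3 exposures lay below sham without overlap. The log2 change was 0.08 ± 0.84 after a single exposure (SE, n = 3 against 3, edgeR adjusted p = 0.98) and turned to -1.82 without library 3 of that group. After 3 exposures it was -0.86 ± 0.85 (edgeR unadjusted p = 0.339, adjusted p = 0.857), with the spread estimated over all 9 libraries, the split single-exposure group among them. In an edgeR fit of only the 6 libraries compared, the change was again -0.86, with an unadjusted p of 0.00198 and an adjusted p of 0.134.

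Il1r2, the decoy receptor that binds interleukin 1 without signalling (chromosome 1, 40074079 to 40125231), stood at 8.17, 1.88 and 13.8 CPM in sham, at 0.607, 1.38 and 4.15 CPM after a single exposure and at 1.57, 1.91 and 1.64 CPM after 3 exposures. Sham library 2, at 10 fragments, lay among the irradiated libraries, so that the groups overlapped in both comparisons. The log2 change was -1.95 ± 0.78 after a single exposure (edgeR unadjusted p = 0.0329, adjusted p = 0.381) and -2.20 ± 0.79 after 3 exposures (unadjusted p = 0.0204, adjusted p = 0.549). With each library left out in turn, the edgeR unadjusted p was under 0.05 in 5 of 9 fits for the single exposure and 6 of 9 for the 3 exposures. It was largest without sham library 3 (0.158 and 0.101). Il1r2 also entered the fit through the sham group, with 3 sham and 2 irradiated libraries over the filter, and its deposited locus of 800110 bases spans 6 other protein-coding genes.

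Lcn2 encodes lipocalin 2, which withholds iron from bacteria by binding their siderophores (chromosome 2, 32384633 to 32388252). It stood at 224, 154 and 324 CPM in sham, at 68.9, 276 and 172 CPM after a single exposure and at 435, 94.7 and 173 CPM after 3 exposures. The 3 groups overlapped throughout, with the highest value in library 1 of the 3 exposures. The log2 change was -0.44 ± 0.60 after a single exposure (edgeR adjusted p = 0.793) and 0.00 ± 0.60 after 3 exposures (adjusted p = 1). Per S100a9 fragment there were 2.62 to 3.76 Lcn2 fragments in sham and 1.65 to 50.4 in the irradiated libraries. The ratio of 50.4 came from library 1 of the single exposure, with 9 S100a9 fragments. Lcn2 itself was at its lowest there, at 68.9 CPM, so the ratio partly restates the low S100a9 values.

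**Figure D2:**
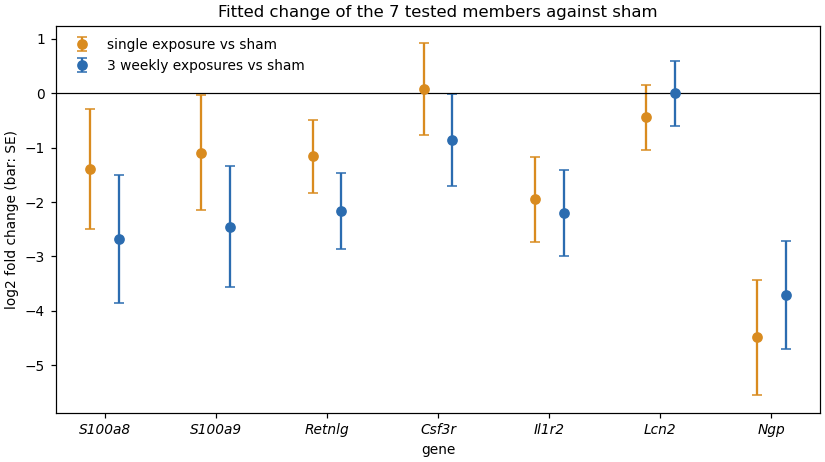
Log2 fold change against sham (vertical axis, bars are the SE of the edgeR fit, n = 3 against 3 libraries) of the 7 genes that passed the filter, after a single exposure (orange) and after 3 weekly exposures (blue). Ngp lies lowest, at -4.49 and -3.71, and Lcn2 nearest to 0 after 3 exposures; none passed the adjusted threshold.

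Across the 3 comparisons, edgeR called 0 of the 7 tested genes at an adjusted p under 0.05, as it did 0 of 14074 genes in all (0%). After a single exposure 2 of the 7, Ngp and Il1r2, were lower at an unadjusted p under 0.05 and none was higher, where 5.43% of all genes were lower and 6.60% higher at that p, and 1 of the 7, Ngp, lay below sham without overlap, against 10.7% of all genes, and none above, against 10.2%. After 3 exposures 4 of the 7, S100a8, Retnlg, Il1r2 and Ngp, were lower at an unadjusted p under 0.05, against 3.64% of all genes, and none was higher, against 4.26%. In that comparison 5 of the 7 lay below sham without overlap, against 11.1% of all genes, and none above, against 10.8%. The median log2 change of the 7 was -1.16 and -2.20 in these comparisons, beside 0.03 and 0.02 over all genes tested. Both comparisons use the same sham libraries, and 2 of the 7 genes entered through them, so these counts describe the genes and do not set them apart. Without sham library 1 alone, the edgeR unadjusted p was under 0.05 for 1 of the 7, Ngp, after a single exposure, beside 763 of 14300 genes in that fit. After 3 exposures it was under 0.05 for 3 of the 7, Retnlg, Il1r2 and Ngp, beside 492 of 14300 genes, and S100a8 was at 0.0695. Without sham library 1 and library 1 of the single exposure together, the edgeR unadjusted p was under 0.05 for 1 of the 7, Ngp, in the first comparison, against 6.57% of all genes in that fit, and for 5, S100a8, S100a9, Retnlg, Il1r2 and Ngp, in the second, against 5.64%. Without library 3 of the single exposure, 8 of the 10 passed the filter and 7 of them, all but Lcn2, were lower after a single exposure at an edgeR unadjusted p under 0.05, where 16.3% of all genes had such a p in either direction. That library held the highest single-exposure values of S100a8, S100a9, Retnlg, Csf3r, Il1r2 and Ngp. It was singled out after these values were seen, so leaving it out had to lower these changes, and the count is a description. In bulk lung tissue, fewer neutrophils and less of these transcripts per neutrophil cannot be told apart.

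The direct comparison of 3 weekly exposures with a single exposure asks whether the irradiated groups differed from each other. All 7 genes overlapped between these groups, whereas 3.86% of all genes were lower and 4.10% higher without overlap. An edgeR unadjusted p under 0.05 was found for 0 of the 7 and for 6.54% of all genes, and the adjusted p ranged from 0.82 to 0.957. The log2 changes were -1.29 ± 1.14 for S100a8, -1.36 ± 1.09 for S100a9, -0.93 ± 0.85 for Csf3r, -0.25 ± 0.81 for Il1r2, 0.44 ± 0.60 for Lcn2 and 0.78 ± 1.11 for Ngp (SE, n = 3 against 3). Retnlg had a fold change of 0.5, with an SE of 0.70 on the log2 scale. Library 3 of the single exposure set the direction for 5 of them: without it S100a8 stood at 1.70, S100a9 at 1.28, Retnlg at 0.39, Csf3r at 0.96 and Il1r2 at 0.78. Without library 1 of the single exposure, the library high in cardiac markers, 3 of 8 tested genes were lower after 3 exposures at an edgeR unadjusted p under 0.05, against 7.35% of all genes in either direction. These were S100a9 at -1.92, Retnlg at -1.42 and Csf3r at -1.48, with edgeR unadjusted p-values of 0.0305, 0.0465 and 0.0179. Without sham library 1 as well, S100a9 and Csf3r were under that threshold, 2 of 7 against 4.43%. With standard errors of 0.60 to 1.14 log2 units, the fit of all 9 libraries did not resolve differences of this size between 1 and 3 exposures.

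The share of Ngp, Camp, Mpo and Elane among the neutrophil fragments restates the low values of these genes and is given as a description, since the grouping was made after the values were seen. Most of these fragments were Ngp, 150 of 179 in sham library 3. Ngp, Camp, Mpo and Elane together made up 7.47% (exact 95% binomial interval 6.33 to 8.75), 4.95% (3.65 to 6.55) and 8.02% (6.92 to 9.22) of the fragments of the 9 genes other than Lcn2 in the sham libraries. After a single exposure they made up 0% (0 to 3.97), 0.84% (0.174 to 2.44) and 0.482% (0.257 to 0.823), and after 3 exposures 0.476% (0.0577 to 1.71), 4.12% (2.86 to 5.74) and 2.2% (0.954 to 4.28). Every irradiated library lay below every sham library in this share. The interval of library 2 of the 3 exposures overlapped that of sham library 2, and library 1 of the single exposure rested on 91 fragments. Library 3 of the single exposure had 2682 fragments of S100a8, S100a9, Retnlg, Csf3r and Il1r2 among 6415682 in all. Sham library 3 had 2054 among 4987828. Of these 4 granule genes, library 3 of the single exposure had 13 fragments against 179 in sham library 3. Other granule genes did not all follow them: 9 of 13 had a log2 change above 0 after 3 exposures. The intervals cover counting error only.

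**Figure D3:**
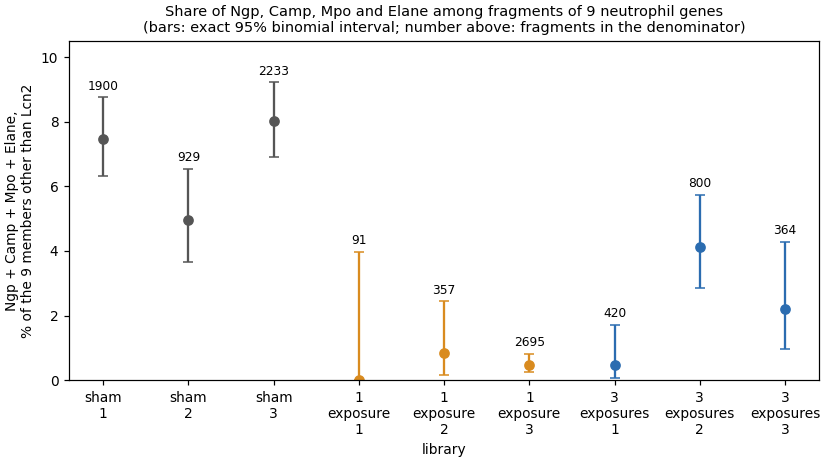
Share of Ngp, Camp, Mpo and Elane fragments among the fragments of the 9 genes other than Lcn2 (vertical axis, percent) in each library; bars are exact 95% binomial intervals and the number above each is the denominator. Sham libraries lie between 4.95 and 8.02%, and irradiated libraries between 0 and 4.12%.

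The proportions among the genes of the mature cell also varied. Csf3r had 0.753 to 1.49 fragments per S100a9 fragment in sham, against 5.11, 3.25 and 1.91 in the single-exposure libraries and 3.95, 2.01 and 3.35 in those of the 3 exposures. All 6 irradiated libraries were above all 3 sham libraries in this ratio. S100a9 is its denominator and lay below the sham range in every irradiated library but library 3 of the single exposure. The ratio thus partly restates those low values and is a description, and the share of other gene pairs that separate in this way was not computed. Retnlg had 0.28 to 0.287 fragments per S100a9 fragment in sham, against 0.225 to 2.56 in the irradiated libraries, where the highest value came from library 1 of the single exposure with 9 S100a9 fragments. Il1r2 had 3.1 to 14.8 fragments per 100 of Csf3r in sham and 2.09 to 8.7 in the irradiated libraries, with overlap.

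Other neutrophil genes gave a mixed picture. Of 30 genes of the mature cell's surface and cytosol, 23 were tested, with 17 lower and 6 higher after 3 exposures, 2 of them lower and 0 higher at an edgeR unadjusted p under 0.05 (median -0.40). After a single exposure 9 were lower and 14 higher (median 0.12), with 0 at that threshold in either direction. Over all genes, 3.64% were lower and 4.26% higher at that threshold after 3 exposures, and 5.43% and 6.60% after a single exposure. Cxcr2, the receptor through which neutrophils leave the marrow and follow chemokines, stood at 27.5, 12.3 and 38.8 CPM in sham, at 1.67, 11.2 and 70.7 CPM after a single exposure and at 10.6, 11.9 and 9.01 CPM after 3 exposures. It shared with Csf3r the high value in library 3 of the single exposure, and after 3 exposures it lay below sham without overlap at a log2 change of -1.31 ± 0.97 (edgeR adjusted p = 0.786). Slfn4, a schlafen gene of myeloid cells, stood at 43.6, 23.9 and 61 CPM in sham and at 24.8, 17.3 and 15.4 CPM after 3 exposures, a log2 change of -1.16 ± 0.74 (edgeR adjusted p = 0.763). Adam8, Hdc, Lrg1, Selplg and G0s2, which other lung cells also express, overlapped between groups, with log2 changes between -0.82 and 0.34. Ly6g, the surface antigen by which mouse neutrophils are usually sorted, was named after its values were seen and had 2, 1 and 5 fragments in sham and 0 in each irradiated library, too few to test.

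Of the 13 other genes of secondary and tertiary granules, all tested, 4 were lower and 9 higher after 3 exposures, 2 and 1 of them at an edgeR unadjusted p under 0.05. Over all genes, 3.64% were lower and 4.26% higher at that p. Mmp8, neutrophil collagenase, is named because its pattern was among those most like the 10 genes, so its values are a description with no test. Mmp8 is 1 of the 2 lower genes, so that count is a description too. It had 135, 47 and 183 fragments in the sham libraries, 8, 18 and 105 in the single-exposure libraries and 11, 30 and 22 in those of the 3 exposures. The most abundant genes of that list, Lyz2, Chi3l3, Chi3l1 and Hp, are also made by macrophages or epithelium, and had log2 changes of 0.44, 2.59, 0.67 and 0.09 after 3 exposures. Chi3l3, which alveolar macrophages express strongly, stood at 204, 195 and 237 CPM in sham and at 2710, 415 and 692 CPM after 3 exposures (log2 change 2.59 ± 0.78, edgeR adjusted p = 0.478). Ltf, the lactoferrin of secondary granules and of gland epithelium, had 10843 fragments in library 1 of the single exposure against 386, 213 and 468 in sham. In the azurophil list, Prtn3, proteinase 3, had 5, 2 and 10 fragments in sham and 0 to 8 in the irradiated libraries, and was not tested. Ctsg, cathepsin G, had 2, 2 and 1 fragments in sham and none after irradiation, and was named after its values were seen. Gstm1 and Hexa, the tested genes of that list, are expressed in many tissues and changed by -0.32 and 0.39 after 3 exposures.

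Signals that act on neutrophils were measured in the same libraries. Csf3, the ligand of Csf3r, had 0 to 2 fragments in every library. Over all genes, 5.43% were lower and 6.60% higher at an edgeR unadjusted p under 0.05 after a single exposure. After 3 exposures these shares were 3.64% and 4.26%. Of 10 tested genes among colony-stimulating factors and transcription factors, 2 were lower and 0 higher at that p after a single exposure. In the comparison of 3 exposures with sham, 2 were lower and 2 higher. The 2 lower genes were Cebpb and Socs3 in both comparisons, which share the sham libraries, and the 2 higher were Cebpa and Csf2ra; Cebpb and Csf2ra were named after their values were seen. Cebpb, a C/EBP factor of myeloid cells that many lung cells also express, had a log2 change of -1.58 after a single exposure (edgeR unadjusted p = 0.000152) and -0.61 after 3 exposures (unadjusted p = 0.036). Like every gene, it did not pass the adjusted threshold of 0.05 in edgeR. Socs3, a feedback inhibitor of cytokine signalling whose pattern was among those most like the 10 genes, had log2 changes of -1.08 and -1.03, given as a description. The counts of lower genes that hold Socs3 are descriptions too. Csf2ra, a subunit of the receptor for granulocyte-macrophage colony-stimulating factor, had a log2 change of 0.67 after 3 exposures (edgeR unadjusted p = 0.0442). Cebpa, a C/EBP factor of granulocyte commitment that alveolar epithelium also expresses, stood at 75.7, 98.4 and 62.6 CPM in sham and 104, 103 and 187 CPM after 3 exposures (log2 change 0.73 ± 0.26, edgeR adjusted p = 0.549). Il1b, the cytokine that Il1r2 captures, stood at 20.7, 20 and 21.1 CPM in sham, at 3.03, 12.6 and 65.3 CPM after a single exposure and at 12, 16.2 and 9.01 CPM after 3 exposures. As for Csf3r, the single exposure held the lowest and the highest value, and the 3 exposures lay below sham without overlap, at -0.72 ± 0.81 (edgeR adjusted p = 0.877). Il1r1, the signalling receptor, stood at 76.1 to 82.9 CPM in sham and at 85.9, 120 and 88.9 CPM after a single exposure (0.30 ± 0.17, edgeR adjusted p = 0.517). Among 14 tested genes of attraction and retention, 2 were lower and 0 higher after a single exposure at an edgeR unadjusted p under 0.05. After 3 exposures 2 were lower, against 3.64% of all genes, and 1 higher, against 4.26%. The higher gene, Cxcl5, was named after its values were seen and rested on 1 library. It had 7, 7 and 6 fragments in sham and 467, 14 and 4 after 3 exposures. Cxcl12, the chemokine that holds neutrophils in the marrow, stood at 205 to 209 CPM in sham and at 113, 174 and 173 CPM after a single exposure, lower without overlap at -0.43 ± 0.17 (edgeR adjusted p = 0.383). Cxcl15, a lung epithelial neutrophil attractant, ranged from 276 to 932 CPM in sham alone. Among receptors and inhibitors of neutrophil products, 8 were tested. At an edgeR unadjusted p under 0.05, 1 was lower and 0 higher after a single exposure, against 5.43% and 6.60% of all genes. After 3 exposures 1 was lower and 1 higher, against 3.64% and 4.26%. Ager, a receptor for S100 proteins and here mostly of alveolar type 1 cells, stood at 604, 1087 and 927 CPM after 3 exposures, on both sides of its sham range.

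Genes whose pattern over the 9 libraries was among those most like the mean of the 7 tested genes were 0610030E20Rik, Plxna2, Tal1, Socs3, Mmp8, Trem1, Scube1, Col23a1 and Mxd1, with Pearson's r from 0.94 to 0.98 as a description. S100a9, S100a8, Retnlg and Il1r2 had r between 0.92 and 0.97 with the mean of the other tested genes, Csf3r 0.85, Ngp 0.82 and Lcn2 0.40. These correlations share the group structure and the low library 1 of the single exposure.

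Markers of other cells moved across the same libraries. The summed level of 14 monocyte markers ranged from 2073 to 2406 CPM in sham, from 1662 to 3002 CPM after a single exposure and from 2801 to 4655 CPM after 3 exposures. Chi3l3, which is also on the alveolar macrophage list, made up 2710 CPM of the highest sum, and without it the other 13 monocyte markers summed to 1879 to 2169 CPM in sham, 1450 to 2663 CPM after a single exposure and 1945 to 2434 CPM after 3 exposures, with overlap. Of the 14, 6 were lower and 8 higher after 3 exposures, 2 and 2 of them at an edgeR unadjusted p under 0.05, against 3.64% and 4.26% of all genes. The 13 alveolar macrophage markers in the table summed to 505 to 563 CPM in sham, 590 to 1707 CPM after a single exposure and 811 to 3348 CPM after 3 exposures, above sham in all 6 irradiated libraries. Without Chi3l3 the other 12 summed to 310 to 327 CPM in sham, 379 to 610 CPM after a single exposure and 396 to 637 CPM after 3 exposures, again above sham in each irradiated library. The 10 platelet markers summed to 184 to 283 CPM in sham, 105 to 172 CPM after a single exposure and 111 to 189 CPM after 3 exposures. All 10 had a log2 change below 0 in both comparisons, which share the sham libraries. At an edgeR unadjusted p under 0.05, 5 were lower after a single exposure, against 5.43% of all genes. After 3 exposures 4 were lower at that p, against 3.64%. The 9 erythroid markers in the table summed to 620 to 1667 CPM in sham, 271 to 1429 CPM after a single exposure and 716 to 3384 CPM after 3 exposures, with overlap. The 9 T cell markers in the table summed to 118 to 131 CPM in sham, 120 to 189 CPM after a single exposure and 120 to 130 CPM after 3 exposures, and the 9 B cell markers to 173 to 185, 169 to 402 and 152 to 225 CPM. The eosinophil list reached at most 4.33 CPM, with Epx at 0 in every library. The 10 NK cell markers reached 152 CPM in library 2 of the single exposure, against 34.7 to 45.5 CPM in sham, and the 9 adipocyte markers reached 943 CPM in library 1 of the single exposure and 973 CPM in library 3 of the 3 exposures, against 44.5 to 104 CPM. The part of blood content or tissue sampling in the neutrophil values was not tested.

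**Figure D4:**
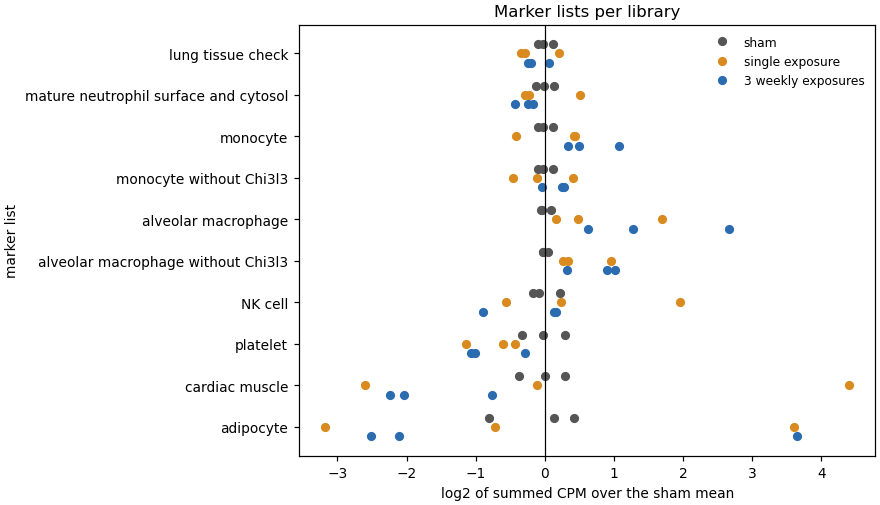
Summed CPM of 8 marker lists in each library, 2 of them also without Chi3l3, as log2 over the mean of the 3 sham libraries (horizontal axis); each point is a library, coloured by group. The alveolar macrophage list lies above sham in all 6 irradiated libraries with and without Chi3l3, the monocyte list without Chi3l3 overlaps sham, and the cardiac list of library 1 of the single exposure (12374 CPM) lies far to the right.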

How the data were processed

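Total RNA of frozen lung was depleted of ribosomal RNA and sequenced from stranded libraries, per the labels' protocols. The submitters' processing notes name cutadapt 1.9.3, HISAT2 2.0.4 and the build mm10; the program that estimated expression is not given in the sources used here. Per the file headers, the authors deposited FPKM and counts for each library. The authors' estimated counts were multiples of 1 step per library (0.854 to 1.19): of the values under 20 steps, 94.8 to 95.9% came within 0.1 of a whole number of steps. Counts were divided by that step and rounded, which gave 4987828 to 7381008 fragments; at this depth genes with few fragments carry a large counting error.

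All 9 libraries entered 1 edgeR 4.0.16 quasi-likelihood fit (TMM factors, filterByExpr, 14074 genes, 6 residual degrees of freedom), with Benjamini-Hochberg adjustment over all genes and calls under 0.05. The SE is the absolute log2 change over the square root of F. CPM used TMM factors. Alternatives were DESeq2 1.42.0, limma 3.58.1 (voom, and log2(FPKM + 1) or log2(FPKM + 0.1)), RLE factors, no filter, deposited counts rounded, the 6 libraries compared, a replicate block and leaving out libraries. The pipeline was tested on simulated counts. Genes named beyond the 10 were the 4 most abundant of a list (8 for mature neutrophil genes) and the 10 most alike in pattern (mean of at least 1 CPM, prior count 2); others are marked as chosen after their values were seen or belong to those lists. The members and lists were chosen with earlier results of these data known. Coordinates are GENCODE M21 on GRCm38, the build of mm10. Some genes taken by the naming rule are not reported here.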

Additional observations from a re-analysis of the deposited data

How the results depend on the processing

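The count of called genes was 0 in edgeR for each comparison, in the order single exposure against sham, 3 exposures against sham and 3 exposures against a single exposure; 1693, 1112 and 920 of 14074 genes had an unadjusted p under 0.05. DESeq2 called 198, 89 and 5 genes, limma on log2(FPKM + 1) called 5, 0 and 1, limma on log2(FPKM + 0.1) called 3, 1 and 1, and edgeR on only the 6 libraries compared called 9 for 3 exposures against sham. DESeq2 called 1 of the neutrophil genes, Ngp, in each comparison with sham. Ngp passed the filter through the sham libraries, which both comparisons share, so these calls are a description. No other alternative called any of the neutrophil genes, and leaving out any 1 library called 0. In edgeR on only the 6 libraries compared, 6 of 7 neutrophil genes had an unadjusted p under 0.05 for 3 exposures against sham, beside 1923 of 13750 genes. There S100a8 had an unadjusted p of 0.000891 and S100a9 of 0.000704, with adjusted p of 0.111 and 0.109. For the single exposure against sham the count was 1 of 7, beside 1571 of 13786 genes. The replicate numbers are not shown to pair the libraries (correlations of same-numbered libraries from -0.08 to 0.3), and the fit with the replicate block called 0 neutrophil genes in each comparison; it moved Csf3r after a single exposure to -0.52 and Il1r2 between the irradiated groups to 0.06.

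Directions turned as follows, and the cause was not tested. Csf3r after a single exposure (0.08) became -1.04 with limma voom, -0.80 with log2(FPKM + 1), -0.97 with log2(FPKM + 0.1), and ranged from -1.82 to 0.62 when single libraries were left out. Between the irradiated groups, limma voom gave 0.37 for S100a8, 0.33 for S100a9, 0.20 for Csf3r and 0.16 for Il1r2, log2(FPKM + 0.1) gave 0.04 for S100a9 and 0.15 for Csf3r, and log2(FPKM + 1) gave 0.01 for Csf3r. With single libraries left out these values ranged from -2.04 to 1.70 for S100a8, -1.92 to 1.28 for S100a9, -1.42 to 0.39 for Retnlg, -1.48 to 0.96 for Csf3r, -0.69 to 0.78 for Il1r2, -0.36 to 0.96 for Lcn2 and -0.10 to 2.95 for Ngp. Lcn2 after 3 exposures ranged from -0.81 to 0.38. Leaving out sham library 1 and library 1 of the single exposure together, and summing 2 marker lists without Chi3l3, were chosen after seeing the data. Each library was left out in turn by plan, but the fits without library 3 or library 1 of the single exposure were singled out after seeing the data.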
